A study of Mus musculus with 6 samples.

Results

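The histone genes of the series are 71 of the 15982 genes of the authors' deposited table, chosen by symbol alone: every entry whose name begins with Hist1h to Hist4h, H2af, H3f3 or H1f. By name, 60 of them are replication-dependent genes (prefix Hist) and 11 are variant genes, and no symbol occurs more than once. RNA was measured in primary bone marrow-derived macrophages from control mice (genotype Ctrl) and from mice with a myeloid-specific knockout of Bub1 (Bub1 cKO), a kinase of the spindle checkpoint. All cells, Ctrl and Bub1 cKO alike, first grew for 3 days with M-CSF (20 ng/ml), a macrophage growth factor. RANKL (50 ng/ml), which drives macrophage precursors towards osteoclasts, was then added beside M-CSF for another 2 days. The labels list 3 libraries per genotype without saying whether they came from separate animals or cultures, and the strain, the age of the mice, the Cre driver and the part of Bub1 that was deleted are likewise not stated in the labels. The p-values below thus reflect library-to-library spread only, and that spread may be technical.

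Histones package DNA: an octamer of H2A, H2B, H3 and H4 forms the nucleosome core, and H1 binds the linker DNA between cores. Replication-dependent histone genes lie in clusters, lack introns for the most part and are transcribed in S phase, and their mRNAs end in a conserved stem-loop bound by the protein Slbp instead of a poly(A) tail. Variant histones such as H2A.Z and H3.3 are made throughout the cell cycle from ordinary polyadenylated mRNAs and replace the canonical forms at particular places on chromatin. Some replication-dependent genes also give polyadenylated mRNA in differentiated cells. Bub1 itself phosphorylates histone H2A at centromeres, a mark that recruits shugoshin proteins. The libraries were made with a QuantSeq 3' kit, which primes on poly(A), so a histone mRNA that ends at the stem-loop is not the usual template of this assay.

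The stem-loop was looked for as the 16-base histone stem-loop, on the sense strand, in the longest protein-coding transcript of each member in GENCODE M21 (GRCm38). It was present in 41 of the 60 replication-dependent members and in 1 of the 11 variant genes, H2afx, the gene of the DNA damage-linked histone H2A.X. Among all 58797 protein-coding transcripts 105 hold it, or 0.179%. The sequences below show the stem-loop, in capitals, with up to 6 bases on either side, for the most abundant member, its duplicate, the H4 genes with the smallest p, the most abundant H4 gene, the most abundant H1 gene and H2afx. They are shown because this element is what sets the mRNA ends of the replication-dependent class apart.
Hist1h2ap: aaaaaaGGCTCTTTTCAGAGCCatc
Hist1h2ao: aaaaaaGGCTCTTTTCAGAGCCatccac
Hist1h4h: accaaaGGCCCTTTTCAGGGCCgcccac
Hist1h4a: accaaaGGCCCTTCTCAGGGCCgcccac
Hist1h4b: acaaaaGGTCCTTTTCAGGACCactcac
Hist1h4i: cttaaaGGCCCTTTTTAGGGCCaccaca
Hist1h1e: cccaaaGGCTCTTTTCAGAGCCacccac
H2afx: cacaaaGGCCCTTTTAAGGGCCaccacc
The 16 bases were identical in 23 members of the H1, H2A, H2B and H3 families, Hist1h2ap among them, and 6 H4 genes shared another form, that of Hist1h4h. The annotated transcript ended under 100 bases after the stem-loop in 20 members and 100 or more bases after it in 21. For Hist1h2ap only 3 bases followed, whereas 1153 followed in Hist1h1e, 330 in Hist1h4i and 822 in H2afx. No stem-loop was found in the annotated transcript of 19 replication-dependent members, some of which, such as Hist1h2ai with 393 bases, are annotated little beyond the coding sequence of 390 bases.

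Promoters were compared as the next feature that the choice by name did not use. RefSeq windows (GRCm38.p6, 250 bases before to 50 after the start) were matched to 64 of the 71 members by name and position. The CCAAT box, searched as CCAAT on both strands, occurred in 47 of 54 replication-dependent promoters (87.0%), in 7 of 10 variant promoters and in 37.4% of all 32851 windows. It was in all 5 H1, 18 H2A, 12 H2B and 9 H3 promoters of the replication-dependent set and in 3 of its 10 H4 promoters. The TATA box, searched as TATAAA on both strands, occurred in 30 of the 54 (55.6%) against 13.6% of all windows, and the octamer ATTTGCAT, also on both strands, in 11 of the 54 (20.4%) against 1.74%. Of those 11, 7 were H2A and 4 were H2B promoters; neighbouring H2A and H2B genes are often transcribed away from each other, so that their windows can overlap and one octamer can count for both genes. None of these 3 motifs contains another, though their end letters can overlap, and a match is only a description of the sequence. The 150 bases before the start, taken as the more upstream of the RefSeq and GENCODE starts, are shown for Hist1h2ap and Hist1h2ao, whose levels are hard to separate, for Hist1h4h, the replication-dependent member with the smallest p, and for the pair of H2A.Z genes, with the motifs in capitals where they occur, as ATTGG where CCAAT is on the other strand.
Hist1h2ap: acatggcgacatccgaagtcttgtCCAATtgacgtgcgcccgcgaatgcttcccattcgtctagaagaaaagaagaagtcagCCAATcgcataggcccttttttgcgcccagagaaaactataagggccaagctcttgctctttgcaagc
Hist1h2ao: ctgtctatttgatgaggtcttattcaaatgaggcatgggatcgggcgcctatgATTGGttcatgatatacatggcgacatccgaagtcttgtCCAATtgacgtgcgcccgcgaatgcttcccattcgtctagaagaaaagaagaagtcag
Hist1h4h: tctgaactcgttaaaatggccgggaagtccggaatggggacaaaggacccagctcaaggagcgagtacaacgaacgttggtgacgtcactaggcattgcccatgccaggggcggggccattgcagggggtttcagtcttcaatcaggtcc
H2afz: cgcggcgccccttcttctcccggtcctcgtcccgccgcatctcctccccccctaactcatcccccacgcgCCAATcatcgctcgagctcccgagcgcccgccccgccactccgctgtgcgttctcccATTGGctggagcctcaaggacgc
H2afv: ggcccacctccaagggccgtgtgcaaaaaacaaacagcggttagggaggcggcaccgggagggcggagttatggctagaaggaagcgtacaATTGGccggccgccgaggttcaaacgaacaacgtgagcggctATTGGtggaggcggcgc
In GRCm38 these stretches are chr13:21833508-21833657 (minus strand), chr13:21810217-21810366 (plus), chr13:23530894-23531043 (plus), chr3:137864337-137864486 (plus) and chr11:6444444-6444593 (minus). The windows of Hist1h2ap and Hist1h2ao share an identical run of 200 of their 300 bases. RefSeq and GENCODE place the start at different bases for Hist1h2ap, where the GENCODE start lies upstream, and for Hist1h2ao and Hist1h4h, where the RefSeq start does.

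The table gives 1 level per gene and genotype, read as TPM because the columns sum to 999891 in Ctrl and 999954 in Bub1 cKO. CPM columns would sum alike, so it is not known whether the values were divided by transcript length. For 3' tags such a division would raise short transcripts beside long ones. Depth and values per library are not given, so precision rests on the standard error of the authors' test. The deposited log2 change is log2 of (Bub1 cKO + 1)/(Ctrl + 1), which understates the change of low genes. The change that the test itself estimated (statistic times standard error) is called the test's own log2 change. The standard errors and 95% intervals below belong to it. The deposited and the test's own change also parted in some genes that were not low. They were 1.353 and 0.029 for Nap1l4, 0.292 and -0.056 for Snrpg, and -0.314 and 0.201 for Znhit1. In others, such as H2afv (-0.565 and -0.566), they were close. Levels and summed levels below thus need not show the change that the test estimated. Why the values part was not tested. Bub1 stood at 6.73 TPM in Ctrl against 5.32 TPM in Bub1 cKO per the authors' deposited table (test's own log2 change -0.32, 95% interval -1.15 to 0.50). Where the counted 3' tags lie relative to the deleted part is not known, and the labels cannot be checked by it.

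No histone gene differed between the genotypes past the authors' adjusted p of 0.05. The count was 0 of 71, where 29 of all 15982 genes passed, or 0.181%. At an unadjusted p under 0.05 per the authors' deposited table there were 5 of 71 members (7.04%) beside 4.81% of all genes. Of these, 3 were lower in Bub1 cKO (H3f3a, H2afz and Hist1h2ai), where 2.46% of all genes were lower, and 2 were higher (Hist1h4h and Hist1h4a), where 2.35% of all genes were higher. The smallest adjusted p of a member was 0.562, that of H3f3a per the authors' deposited table. In these bulk samples fewer cells of a type and less RNA per cell cannot be told apart.

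Among variant genes, both H2A.Z genes and both H3.3 genes had lower levels in Bub1 cKO, and the 2 with the smallest standard errors had an interval that leaves out 0. H2afz, which encodes H2A.Z, the variant placed around gene starts, is on chromosome 3 (137864487 to 137866922, plus strand, GRCm38). Its level per the authors' deposited table was 660 TPM in Ctrl against 515 TPM in Bub1 cKO, with a test's own log2 change of -0.29 (standard error 0.11, 95% interval -0.51 to -0.08) and an adjusted p of 0.642. It was the most abundant variant gene in both genotypes. Of the 50-base windows of its transcript 33.2% also occur in another gene, nearly all of them in the pseudogene Gm8203, which was not analysed here. H2afv, the second H2A.Z gene, has no such shared window. Its levels per the authors' deposited table were 220 and 148 TPM, with a test's own log2 change of -0.57 whose 95% interval, -1.17 to 0.04, includes 0. Added up, the H2A.Z genes came to 880 TPM in Ctrl against 663 TPM in Bub1 cKO, a ratio of 0.754. Their coding sequences are the same at 304 of 384 bases (79.2%).

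H3f3a and H3f3b, which encode the same H3.3 protein, are the same at 313 of 408 coding bases. H3f3a (chromosome 1, 180800832 to 180813943, minus strand) had 199 TPM in Ctrl against 161 TPM in Bub1 cKO per the authors' deposited table, with a test's own log2 change of -0.37 (standard error 0.13, 95% interval -0.63 to -0.11) and an adjusted p of 0.562. H3f3b stood at 175 and 168 TPM, and its interval of -0.32 to 0.21 overlaps that of H3f3a; the difference between the 2 genes was not tested. In Ctrl, H3f3a was the higher of the pair, while in Bub1 cKO it was the lower.

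The other H2A variants had intervals that include 0. H2afy, the gene of macroH2A1, a large variant of silent chromatin, was at 85.4 and 90.8 TPM per the authors' deposited table (95% interval for the test's own log2 change -0.31 to 0.41). H2afx was at 29.2 and 30.8 TPM (-0.52 to 0.69), and H2afj, a variant close to canonical H2A, at 23.0 and 18.4 TPM (-0.87 to 0.58). The second macroH2A gene, H2afy2, was under 1 TPM in both groups. Of the linker variants, H1f0, the H1 of differentiated cells, was at 21.7 and 20.0 TPM per the authors' deposited table (-0.70 to 0.49) and H1fx at 5.37 and 2.63 TPM with a wide interval of -3.04 to 0.90. The oocyte linker histone gene H1foo was listed at 0 in Ctrl and at 1.70 TPM in Bub1 cKO, with a standard error of 3.56. Of the 9 variant genes whose mean was 1 TPM or more, 7 had a negative and 2 a positive statistic, where 50.4% of all 10881 genes of at least 1 TPM had a negative one. The median log2 change of these variant genes was -0.31, beside -0.01 for all genes of at least 1 TPM. The median was -0.15 for the test's own log2 change, and both medians were the values of H2afj. All 11 variants added up to 1419 TPM in Ctrl against 1157 TPM in Bub1 cKO, a ratio of 0.815, and to a ratio of 0.845 without H2afz.

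The replication-dependent signal came almost wholly from a single H2A gene. Hist1h2ap, a canonical H2A gene of the large cluster on chromosome 13 (21833026 to 21833507, minus strand), was at 3197 TPM in Ctrl against 2868 TPM in Bub1 cKO per the authors' deposited table. That is 86.8% of the summed level of the 60 replication-dependent genes in Ctrl and 85.6% in Bub1 cKO, and by its mean the gene ranks at place 59 of 15982. Its mean was 56.4 times that of the next member, Hist1h1e. The annotated transcripts have 482 and 1930 bases, so this ratio, the share and the rank depend on whether levels were divided by length. For Hist1h2ap the test's own log2 change was -0.15, standard error 0.10 (95% interval -0.35 to 0.05, authors' adjusted p 0.985). Its transcript shares 93.1% of its 50-base windows with other genes, above all with Hist1h2ao, whose coding sequence is the same at all 390 bases. The split of reads between such copies is uncertain.

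Hist1h2ao (chromosome 13, 21810465 to 21810944, plus strand) is the duplicate of Hist1h2ap. Its Ctrl level per the authors' deposited table was 1.7e-06 TPM and its Bub1 cKO level 38.1 TPM, while Hist1h2ap was lower in Bub1 cKO. The deposited log2 change was 5.29, the standard error 3.91, and the p is set to 1 although the statistic was 1.83. Added together, the pair had 3197 TPM in Ctrl against 2906 TPM in Bub1 cKO, a ratio of 0.909. A value of this kind says nothing certain about Hist1h2ao itself. Hist2h2aa1 and Hist2h2aa2, a duplicated H2A pair on chromosome 3 with coding sequences the same at all 390 bases, also differed in opposite directions: 22.1 against 28.4 TPM for the former and 56.7 against 26.9 TPM for the latter per the authors' deposited table (standard errors 0.67 and 0.69). Their sum was 78.8 TPM in Ctrl against 55.3 TPM in Bub1 cKO.

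Other H2A genes behaved in the same scattered way. Hist1h2ai was at 15.9 TPM in Ctrl and listed at 0 in Bub1 cKO, and Hist1h2af at 9.15 TPM and 0, whereas Hist1h2ak was listed at 0 in Ctrl and at 10.8 TPM in Bub1 cKO per the authors' deposited table. Their standard errors were 2.53, 2.44 and 2.58 on the log2 scale, so that of these only Hist1h2ai had an unadjusted p under 0.05 (0.047). Hist2h2ab was at 2.86 TPM and 0, with a standard error of 3.96. The H2A genes of higher level had smaller errors: Hist1h2ab was at 46.4 and 21.8 TPM (standard error 0.71) and Hist1h2ae at 40.1 and 22.5 TPM (0.48) per the authors' deposited table, both lower in Bub1 cKO with intervals that include 0. Hist2h2ac was at 43.5 and 48.5 TPM. Without Hist1h2ap the 18 other H2A genes added up to 267 TPM in Ctrl against 230 TPM in Bub1 cKO, a ratio of 0.862, with 8 negative and 10 positive statistics.

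H1 genes were measured more precisely than most of the replication-dependent set: the 4 of at least 1 TPM had a median standard error of 0.41. Hist1h1e, which encodes linker histone H1.4, was at 52.0 TPM in Ctrl against 55.5 TPM in Bub1 cKO per the authors' deposited table, with a standard error of 0.20 and a 95% interval for the test's own log2 change from -0.28 to 0.49. Hist1h1b was at 31.6 and 28.9 TPM (standard error 0.52) and Hist1h1c, known to give polyadenylated mRNA in differentiated cells, at 24.4 and 23.7 TPM (0.31). Hist1h1a was at 3.57 and 9.73 TPM with an interval of -0.37 to 3.28, and Hist1h1d was under 1 TPM in both. The 5 H1 genes added up to 112 and 118 TPM. Neither Hist1h1b nor Hist1h1a shared any 50-base window with another gene.

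Histone H4 genes, 11 in number, were the replication-dependent family with the largest ratio of summed levels. They added up to 42.6 TPM in Ctrl against 80.4 TPM in Bub1 cKO, a ratio of 1.89. The statistic was positive in 8 of the 11, where it was positive in 7975 of all 15982 genes. H4 genes encode nearly or fully identical proteins, and how reads were split among them was not tested. Hist1h4h (chromosome 13, 23531050 to 23531519, plus strand) was listed at 0 in Ctrl and at 10.9 TPM in Bub1 cKO per the authors' deposited table, with a test's own log2 change of 5.19 (standard error 2.19, 95% interval 0.90 to 9.47), p = 0.018 and an adjusted p of 0.841. Hist1h4a was at 0 and 5.99 TPM (p = 0.047, standard error 2.40) and Hist1h4b at 0.905 and 12.2 TPM (p = 0.085) per the authors' deposited table. Hist1h4n was at 9.81 and 19.6 TPM with a standard error of 1.05. Against these, Hist1h4f was at 4.35 TPM in Ctrl against 0 in Bub1 cKO, and the H4 genes with the smallest standard errors above 5 TPM were nearly level: Hist1h4i at 17.3 and 18.95 TPM (standard error 0.62) and Hist1h4d at 8.26 and 9.47 TPM (0.67). With any single H4 gene left out the ratio of the sums ran from 1.63 to 2.43, and without the members listed at 0 in a group it was 1.65. No test of the sum was possible without values per library. Hist1h4b, Hist1h4n, Hist1h4d, Hist1h1a and Hist1h1d, and the H4 sum itself, were chosen after their values were seen.

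**Figure D1:**
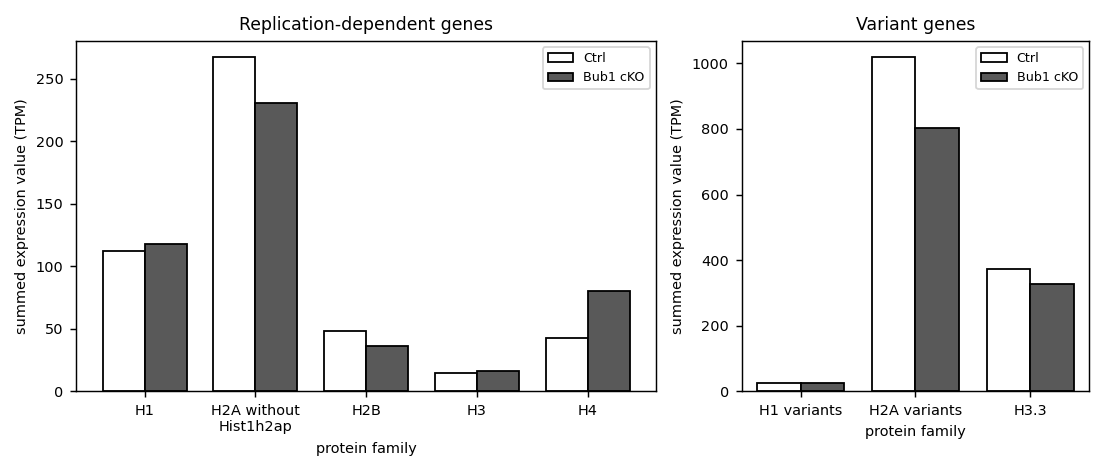
Summed deposited expression value (TPM) of the replication-dependent genes by protein family, left, and of the variant genes, right, in Ctrl (white) and Bub1 cKO (grey), with H2A drawn without Hist1h2ap. There are no error bars because values per library are not given. H4 is at 42.6 and 80.4 TPM, and the H2A variants are at 1018 and 804 TPM.

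H2B and H3 genes were low. The 14 H2B genes added up to 48.7 TPM in Ctrl against 36.1 TPM in Bub1 cKO, most of it from Hist1h2bc, another gene known to give polyadenylated mRNA, at 27.1 and 24.1 TPM (standard error 0.38) per the authors' deposited table. Hist1h2bn, Hist1h2bk, Hist1h2bp and Hist1h2bb were at 5.20, 3.38, 1.23 and 1.13 TPM in Ctrl and all listed at 0 in Bub1 cKO, with standard errors of 3.56 or more. The 11 H3 genes added up to 15.0 and 16.01 TPM. In this family Hist1h3g, Hist1h3b and Hist1h3a were at 3.26, 1.87 and 1.41 TPM in Ctrl against at 0 in Bub1 cKO, while Hist2h3b, Hist1h3i, Hist2h3c2, Hist1h3c and Hist1h3e were at 0 in Ctrl but reached 2.70, 1.60, 1.55, 1.40 and 1.10 TPM in Bub1 cKO. The H4 gene Hist1h4c was at 0 and 1.15 TPM. None of these had an unadjusted p under 0.05 per the authors' deposited table. The 28 members outside the rule for named genes had means from 0.060 to 14.7 TPM and unadjusted p of at least 0.085. Among them Hist1h2al, annotated as a processed pseudogene and singled out after its values were seen, was at 8.80 and 8.96 TPM per the authors' deposited table.

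As a set, replication-dependent genes had no common direction. Of the 41 with a mean of at least 1 TPM, 19 had a negative and 22 a positive statistic, with a median log2 change of 0.07 beside -0.01 for all genes of at least 1 TPM. Over all 60 the counts were 28 and 32 and the median was -0.05, so its sign depends on the filter. Their summed level was 3682 TPM in Ctrl against 3349 TPM in Bub1 cKO (ratio 0.910). Without Hist1h2ap it was 485 and 481 TPM (ratio 0.991). The 5 members of the list of replication-dependent genes known to be polyadenylated in differentiated cells (Hist1h1c, Hist1h2bc, Hist2h2be, Hist3h2a and Hist4h4) added up to 61.3 and 57.2 TPM.

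**Figure D2:**
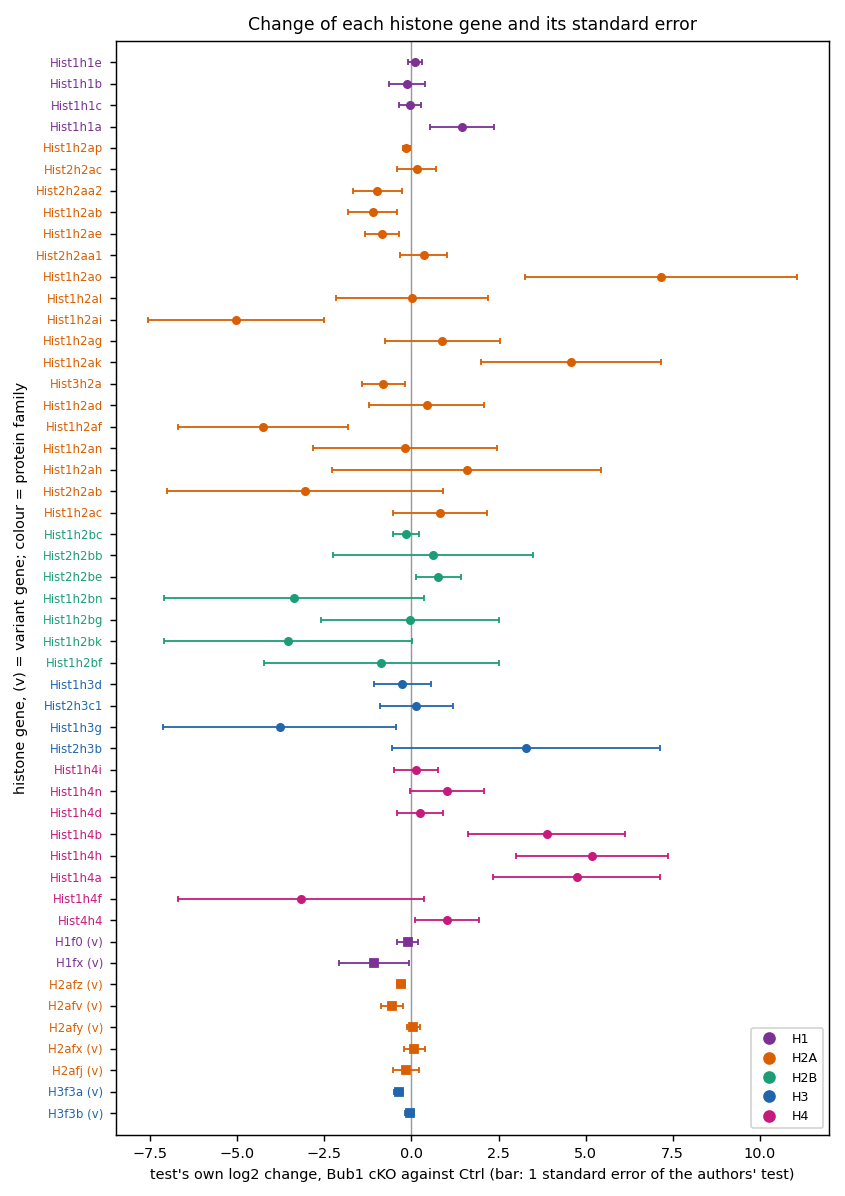
Test's own log2 change of Bub1 cKO against Ctrl for the 50 histone genes of at least 1 TPM, with bars of 1 standard error of the authors' test, circles for replication-dependent and squares for variant genes. The bars of H2afz, H3f3a, H3f3b and Hist1h2ap are short (0.10 to 0.14), while those of Hist1h2ai, Hist1h2ak and Hist1h4h exceed 2 log2 units to either side.

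Replication-dependent genes were measured with less precision than other genes of like level. Between 5 and 20 TPM, the median standard error was 1.65 for 13 of them and 0.46 for all 3787 genes of the table. From 1 to 5 TPM it was 2.75 against 0.84, and from 20 to 60 TPM 0.52 against 0.31. Of the 41 with a mean of at least 1 TPM, 11 were listed at 0 in one genotype (26.8%), 4 in Ctrl and 7 in Bub1 cKO. Among all genes of at least 1 TPM the share was 3.12%, and among variant genes it was 0 of 9. From 1 to 5 TPM, 2 of 18 were at 0 in Ctrl and 6 in Bub1 cKO, beside 115 and 124 of all 3722 genes. From 5 to 20 TPM it was 2 and 1 of 13, beside 49 and 36 of 3787. Hist1h2ao, at 1.7e-06 TPM in Ctrl, is not counted as 0. Shared sequence ran beside this: among genes of at least 1 TPM the median standard error was 2.49 in the 22 with 50% or more shared windows and 0.67 in the 19 with fewer. By annotated 3' end, it was 0.74 where the transcript ran 100 or more bases past the stem-loop (12 genes), 1.65 where it ended sooner (15 genes) and 2.56 where no stem-loop was annotated (14 genes). These groups also differ in level, and transcript length was not matched here or in the comparison with all genes. The part of each feature, length included, was not tested.

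**Figure D3:**
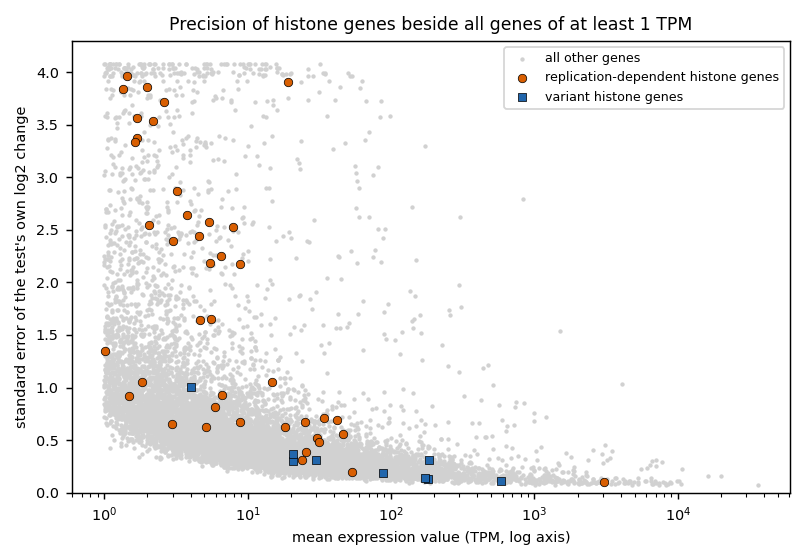
Standard error of the test's own log2 change against the mean expression value (TPM, log axis) for replication-dependent genes (circles), variant genes (squares) and all other genes of at least 1 TPM (grey). Between 5 and 20 TPM the median is 1.65 for replication-dependent genes and 0.46 for all genes.

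The genes that make and process histone mRNA showed no member past the authors' adjusted p. Of 20 listed genes in the table, the statistic was positive in 12 and negative in 8, and 1 was higher at an unadjusted p under 0.05, a share of 5% that is near the 4.81% of all genes. This was Casp8ap2, a factor of the histone locus body, at 4.54 TPM in Ctrl against 7.94 TPM in Bub1 cKO per the authors' deposited table (p = 0.016, adjusted p 0.809). The endonuclease gene Cpsf3, the snRNP core gene Snrpd3 and the scaffold gene Sympk were at 163 and 197, 287 and 348, and 69.6 and 102 TPM, each with a p above that threshold. Slbp, the stem-loop binding protein, was at 17.6 and 17.3 TPM (standard error 0.33), and Npat, which switches on histone transcription, at 3.36 and 2.71 TPM per the authors' deposited table; both were chosen after their values were seen.

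Histone chaperones, which carry histones to DNA, were measured for all 36 listed genes, with 19 positive and 17 negative statistics and 0 past the adjusted p. Their median log2 change was 0.12 as deposited and 0.04 for the test's own log2 change. At an unadjusted p under 0.05 there, 3 genes were higher and 1 lower (11.1% of the list, beside 4.81% of all genes). The nucleolar histone-binding gene Ncl was at 671 and 821 TPM (p = 0.001, adjusted p 0.263) and Set, a chaperone and phosphatase inhibitor, at 361 and 470 TPM (p = 0.003, adjusted p 0.411) per the authors' deposited table. Srcap, the remodeller that inserts H2A.Z, was at 2.37 and 6.56 TPM (p = 0.004, adjusted p 0.487) per the authors' deposited table. Nap1l1, a chaperone of H2A and H2B, was at 382 and 328 TPM (p = 0.009, adjusted p 0.676) per the authors' deposited table.

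For histone kinases and readers of histone marks, those of the centromere for the most part, 11 listed genes were in the table, Bub1 among them. Of these, 8 had a negative and 3 a positive statistic, where 8007 of all 15982 genes had a negative one. Their median log2 change was -0.22, with 0 at an unadjusted p under 0.05. These counts include the DNA damage genes Atm, Prkdc and Mdc1, whose statistics were -0.30, 0.27 and 0.39. The shugoshin gene Sgo1, whose protein binds the H2A mark made by Bub1, was at 63.2 and 21.9 TPM per the authors' deposited table, but its test's own log2 change was -0.52 with a 95% interval of -1.41 to 0.36. Aurka was at 17.8 and 11.8 TPM, Vrk1, a kinase of H3, at 17.7 and 12.2 TPM and Sgol2a at 9.64 and 8.15 TPM. Cenpa, the centromeric H3 variant that the choice by name does not take, was at 33.1 and 27.8 TPM (p = 0.538) per the authors' deposited table and was chosen after its values were seen.

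S-phase genes, which rise with replication-dependent histones in cycling cells, gave 13 negative and 12 positive statistics in 25 genes, with a median log2 change of -0.03. At an unadjusted p under 0.05 per the authors' deposited table the helicase gene Mcm7 (79.2 and 57.4 TPM) and Gins2 (3.88 and 1.29 TPM) were lower and Mcm6 (23.6 and 33.3 TPM) was higher, 12% of the list beside 4.81% of all genes. Cdc6, which loads the helicase, was at 6.18 and 3.48 TPM with p = 0.132 per the authors' deposited table.

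Cell type markers were read from the same table. All 8 macrophage and all 8 osteoclast markers were present at a mean of at least 1 TPM, so the defining markers of the labelled cells were not absent. Macrophage markers added up to 2605 TPM in Ctrl against 1223 TPM in Bub1 cKO. This difference lay almost wholly in Lyz2, the 1 past the adjusted p, so the sum does not describe the other macrophage markers. Lyz2 alone was at 2141 and 762 TPM per the authors' deposited table. The next by mean were Cd68, higher in Bub1 cKO (260 and 306 TPM), and Csf1r, lower (116 and 96.7 TPM), per the authors' deposited table. Osteoclast markers added up to 1882 and 2169 TPM. At an unadjusted p under 0.05, 4 macrophage markers were lower and 1 higher, and 4 osteoclast markers were higher and 0 lower. Of all genes 2.46% were lower and 2.35% higher. The 5 erythroid markers in the table, globin genes for the most part, added up to 19.6 and 358 TPM, and the 7 neutrophil markers to 94.8 and 228 TPM, with a positive statistic in 5 of 5 and 7 of 7 and an adjusted p under 0.05 in 2 and 1, where 0.181% of all genes passed. Of the neutrophil markers, Ltf had a lower level in Bub1 cKO (12.3 against 6.74 TPM per the authors' deposited table) although its statistic was 0.22. Stromal markers came to 1.85 and 2.41 TPM over 4 genes, and the lymphoid marker Cd3e was at 0.058 and 0 TPM. The part of these markers in the histone values was not tested.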

How the data were processed

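RNA was measured in 6 QuantSeq 3' libraries, 3 per genotype, grouped by the genotype in their titles. The deposited file is 1 comparison table, and its header names RaNA-seq; neither the aligner or quantifier nor the build, annotation and test is given in the sources used here. The authors' deposited expression columns were read as TPM from their sums. The log2 change, the standard error and statistic (read as scores), and the p-value and adjusted p-value are the authors' deposited values. Directions follow the sign of the statistic. The design allowed for values per library; as the table holds none, the authors' adjusted p under 0.05 was used.

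Members, lists and tests were chosen with earlier results of these data known. Named members are the 12 with the highest mean and the 6 with the smallest p in each class, and those listed at 0 in 1 group and at 1 TPM or more in the other, besides Bub1 and, per list, up to 4 genes by smallest p (for markers, up to 3 by mean, given here mostly as sums). Gene positions, transcripts and 50-base shared windows come from GENCODE M21, which holds all 71 member IDs with their versions, and 14622 of all 15982. Promoters come from RefSeq, GRCm38.p6. Scripts ran in Python 3.11.15 with pandas 2.3.3, and the adjustment and window steps were tested on simulated data.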

Additional observations from a re-analysis of the deposited data

How the results depend on the processing

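The count of histone genes past the adjusted p was 0 under the authors' adjusted p of 0.05 and of 0.1, and 0 after a new adjustment over the genes of at least 1 or 5 TPM. The median log2 change of replication-dependent genes, reported as 0.07, moved by over 1.5 times or changed sign with all members (-0.0495), with a pseudocount of 5 (0.0299) and without members listed at 0 in a group (0.11). That of variant genes, reported as -0.31, went to -0.15 with the test's own log2 change. Both are the values of H2afj, the middle gene each time (standard error 0.37). Why its 2 values differ, and why the replication-dependent median moved, was not tested. The medians under the other alternatives kept their sign and stayed within 1.5 times. The alternatives without members listed at 0, with few shared windows, and those of the H4 sum were added after seeing the data. The ratios of summed levels moved by less than 1.5 times in every alternative run. That bound is wide: around the replication-dependent ratio (0.910) and the variant ratio (0.815) it also takes in no difference. Without Hist1h2ap the replication-dependent ratio went to 0.991 and still counted as unmoved. Of 43 named members, all kept their log2 change within 1 standard error with a pseudocount of 5 or 0.5. With the test's own log2 change in place of the deposited one 42 did, and the exception, Hist2h3c2, went from 1.35 to 4.298. These counts say little where the standard error is large. Hist1h2ao went from 5.29 to 3.11 with a pseudocount of 5 and still counted (standard error 3.91). The standard errors belong to the test's own log2 change, not to the deposited one. No paired analysis was possible because the table holds no values per library, and leaving out a library could not be run for the same reason. Depth is unknown, and the authors' standard error sets what could be seen: for the 41 replication-dependent genes of at least 1 TPM its median was 1.65 on the log2 scale.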
